A study of Mus musculus with 8 samples.

Results

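STHdh striatal cells transfected with Bcl11b held 224 probes that were well detected on every array and lower than in the control cells without overlap, from 213 genes. These probes were selected on the difference itself. The signals of the 8 arrays were quantile-normalized, set to at least 1 and transformed to log2, and a probe was kept when its deposited detection p-value was under 0.01 on all 8 arrays, when the highest of its 4 Bcl11b values lay below the lowest of its 4 pcDNA3.1 values, and when the mean of the Bcl11b group was lower by 0.6 or more on the log2 scale. They are 224 of the 25697 probes on the array and of the 9360 probes detected on all 8 arrays, and their genes are 213 of 17850. The differences between the groups given below for these probes therefore describe the choice and carry no test.

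STHdh cells are conditionally immortalized progenitor cells from the striatum of embryonic mice, and the line used was wild-type for huntingtin. In one group the cells received, with the PolyJet reagent, the pcDNA3.1 plasmid carrying mouse Bcl11b complementary DNA (beta isoform), and in the other the pcDNA3.1 plasmid alone, which the labels also call wild-type. RNA was taken 2 days after transfection and hybridized to Illumina MouseRef-8 v2 arrays, 4 per group. The 4 arrays of a group came from separately transfected sets of cells of 1 line, as the study's legends state, and the p-values below measure the spread between these sets. Transfection was transient, so each dish was a mixture of cells with and without plasmid, and fewer cells expressing a gene cannot be told apart from less RNA of that gene per cell.

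Bcl11b, also called Ctip2, is a zinc finger protein that binds DNA and recruits chromatin-modifying complexes, through which it represses many of its targets. In the striatum it is a known marker of medium spiny neurons and is needed for their differentiation. It was first described as a partner of the COUP-TF nuclear receptors, and one of these, Nr2f1, was among the 213 genes.

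Expression of the transfected Bcl11b could not be read here, since the single probe for it was detected on 0 of the 8 arrays. Of 9 markers of mature medium spiny neurons on the array, 0 were detected on any array, and the same held for the 5 astrocyte, 5 microglial and 4 oligodendrocyte markers. Of 7 markers of neural progenitors 4 were detected, Nes, Vim and Sox2 on all 8 arrays, and of 6 fibroblast or mesenchymal markers 4 were detected. None of these markers was among the 224 probes. Before normalization the control arrays were brighter, with a median signal from 31.63 to 53.86 against 20.14 to 30.25 for the Bcl11b arrays. How far this brightness enters the members was not tested, and their values under other scalings are given below. No probe had the same signal on any 2 arrays.

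The mean log2 signal of the member probes was lower by 0.60 to 1.52 in the Bcl11b group. The median difference was -0.71, with quartiles of -0.82 and -0.64, whereas the median over all 9360 detected probes was -0.03. For 63 member probes (28.1%) the difference was -0.8 or less, for 18 (8.04%) it was -1 or less, and for 5 (2.23%) it was -1.2 or less. In the control arrays the members had a median level of 9.23, from 7.28 for Jam3 to 13.58 for Hmgcs1, so they included dim and bright probes. The median SD of a member over 4 arrays was 0.26 in the control group and 0.17 in the Bcl11b group, against 0.28 and 0.22 over all detected probes.

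The gap between the lowest control array and the highest Bcl11b array had a median of 0.22 and reached 0.5 in 24 member probes. It was under 0.1 in 47, and in 35 of these the lowest control value came from pcDNA3.1 replicate 2. Over all detected probes, 691 (7.38%) did not overlap between the groups and were lower with Bcl11b, and 234 (2.5%) did not overlap and were higher.

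Gper1, which encodes the G protein-coupled oestrogen receptor, had the largest difference. Its log2 signal was 8.63, 8.40, 9.42 and 8.81 in the 4 pcDNA3.1 arrays and 7.37, 7.33, 7.07 and 7.38 in the 4 Bcl11b arrays. All Bcl11b arrays lay more than 1 unit below the lowest control array. They were closer together than the control arrays, with replicate 3 somewhat apart as the lowest. The group means were 8.81 ± 0.44 and 7.29 ± 0.14 (SD, n = 4 each), a 2.88-fold lower signal.

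Osgin1, an oxidative stress-induced growth inhibitor, came second with a 2.48-fold lower signal. Its values were 8.77, 7.79, 9.15 and 8.92 in the control arrays against 7.64, 7.38, 7.14 and 7.22 with Bcl11b. Here pcDNA3.1 replicate 2 stood well below the other control arrays, and only 0.15 above Bcl11b replicate 1. The same shape was seen for the SOCS box protein Spsb4, where pcDNA3.1 replicate 2 (6.96) and Bcl11b replicate 2 (6.93) almost touched although the group means differed by -1.12.

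Tspoap1, a protein of the presynaptic active zone also known as RIM-binding protein, had tight values. They were 8.19, 8.06, 8.33 and 8.56 in the control arrays and 7.18, 7.11, 6.91 and 7.09 with Bcl11b, with a gap of 0.87 between the groups. Pdgfra, the alpha receptor for platelet-derived growth factor, was tighter still. Its control values were 8.18, 8.30, 8.20 and 8.33 and its Bcl11b values 7.51, 7.50, 7.58 and 7.59, so that a moderate difference of -0.70 stood beside SDs of 0.08 and 0.04.

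**Figure D1:**
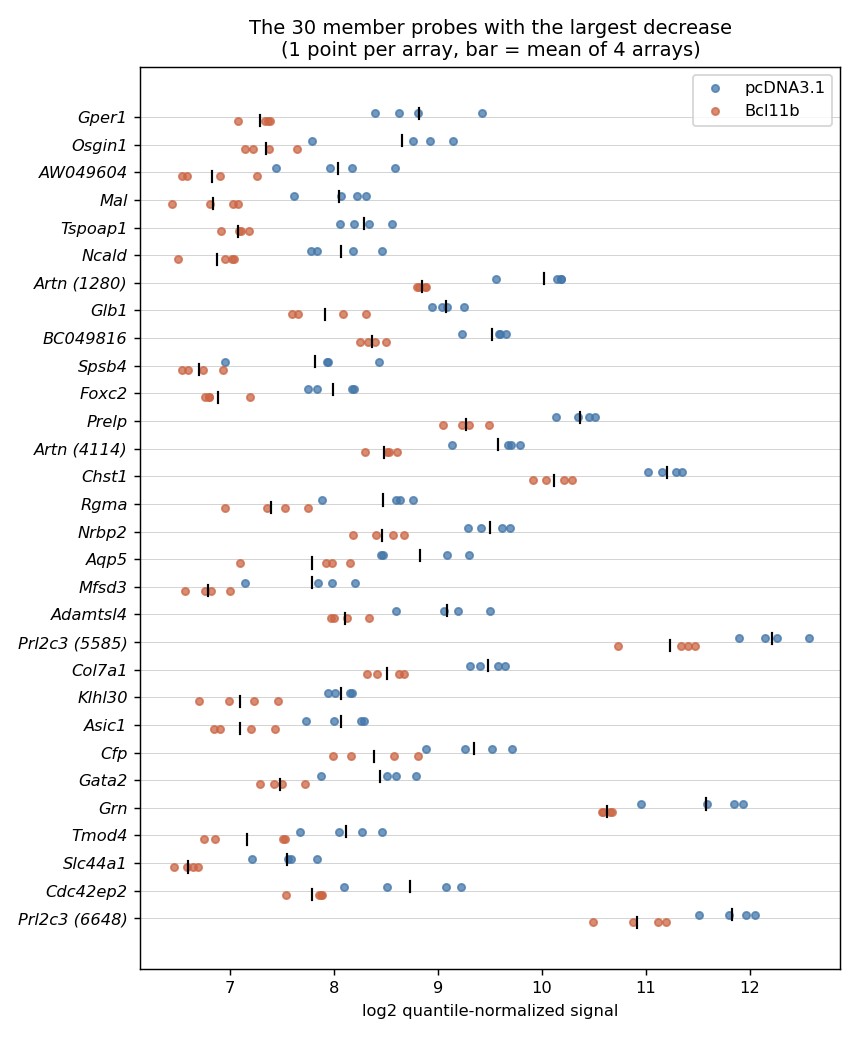
Log2 quantile-normalized signal (x axis) of the 30 member probes with the largest decrease (y axis), with 1 point per array in blue for pcDNA3.1 and orange for Bcl11b and a bar at each group mean. The groups do not overlap because the probes were chosen so, and the gap is widest for Gper1 (1.02) and narrow for Spsb4, where pcDNA3.1 replicate 2 is the lowest control point; digits after a name are the end of the probe number where a gene has 2 probes.

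To show what lies directly before the start of these genes, the 120 bases upstream of 5 of them follow, taken from RefSeq promoters of build GRCm38.p6 on the strand of the gene. They are Gper1 at chr5:139423059-139423178 (plus strand), Osgin1 at chr8:119437027-119437146 (plus), Artn at chr4:117929764-117929883 (minus), Glb1 at chr9:114400958-114401077 (plus) and Prelp at chr1:133921402-133921521 (minus). Capitals mark matches on either strand to any of 10 motifs. Mal and Spsb4, whose decreases lie between those of these genes, held none of the motifs in the same stretch and are not shown. The 5 stretches therefore do not show how often a member holds a motif. Searched were ACCACA, bound by Runx factors, and AGGTCA, bound by nuclear receptors, further TGACTCA of the AP-1 family and TGACGTCA of the CREB family, the E-box CACGTG, the GC box GGGCGG, the common promoter element CCAAT, the TATA box TATAAA, and as further short words TGCTTG together with the word AGTGCT.
Gper1: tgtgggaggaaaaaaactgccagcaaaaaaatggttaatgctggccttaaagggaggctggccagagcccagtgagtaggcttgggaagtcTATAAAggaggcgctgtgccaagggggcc
Osgin1: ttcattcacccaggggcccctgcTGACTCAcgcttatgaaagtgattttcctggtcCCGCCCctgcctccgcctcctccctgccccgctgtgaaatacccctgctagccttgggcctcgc
Artn: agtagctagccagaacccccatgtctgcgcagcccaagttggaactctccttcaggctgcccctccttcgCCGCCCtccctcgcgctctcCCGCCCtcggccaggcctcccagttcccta
Glb1: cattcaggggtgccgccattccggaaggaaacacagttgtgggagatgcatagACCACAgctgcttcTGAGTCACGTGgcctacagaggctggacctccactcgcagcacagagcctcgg
Prelp: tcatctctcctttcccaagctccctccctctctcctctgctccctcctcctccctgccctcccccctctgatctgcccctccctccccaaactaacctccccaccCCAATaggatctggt

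The stretch of Gper1 held a TATAAA that began 29 bases before the start. Osgin1 held TGACTCA, the AP-1 motif, 97 bases before its start and a GGGCGG on the other strand 64 bases before it. Artn held GGGCGG on the other strand at 50 and 30 bases before the start, and Prelp a CCAAT at 15. Glb1 held ACCACA at 67 bases, followed by TGACTCA on the other strand at 53 and CACGTG at 48, the last pair overlapping. Among the same 120 bases of all 27025 genes of the promoter table, TATAAA was found in 6.76%, TGACTCA in 2.26%, GGGCGG in 26.9%, CCAAT in 22.11%, CACGTG in 3.64% and ACCACA in 6.83%. These shares count all genes, detected here or not. In longer windows, from 250 bases before to 50 after the start, GGGCGG was found in 35.9% of all genes. Among genes with a probe detected on all 8 arrays it was found in 68.7%. For TATAAA the same shares were 14.2% and 6.6%. The matches marked above are letters in a window and not measured sites. A comparison of motif, GC or CpG content between all member genes and other genes is not reported here. Only 162 of the 213 genes (76.1%) had a promoter in the table, and 5565 of the 7027 genes with a detected probe (79.2%).

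Sorted by what their products do, 107 of the 213 genes fell into 12 groups, which were drawn up after the members were known. Some genes stand in more than 1 group. Because the rule set a ceiling on every difference, the groups differ mainly in how far their members lie beyond it.

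**Figure D2:**
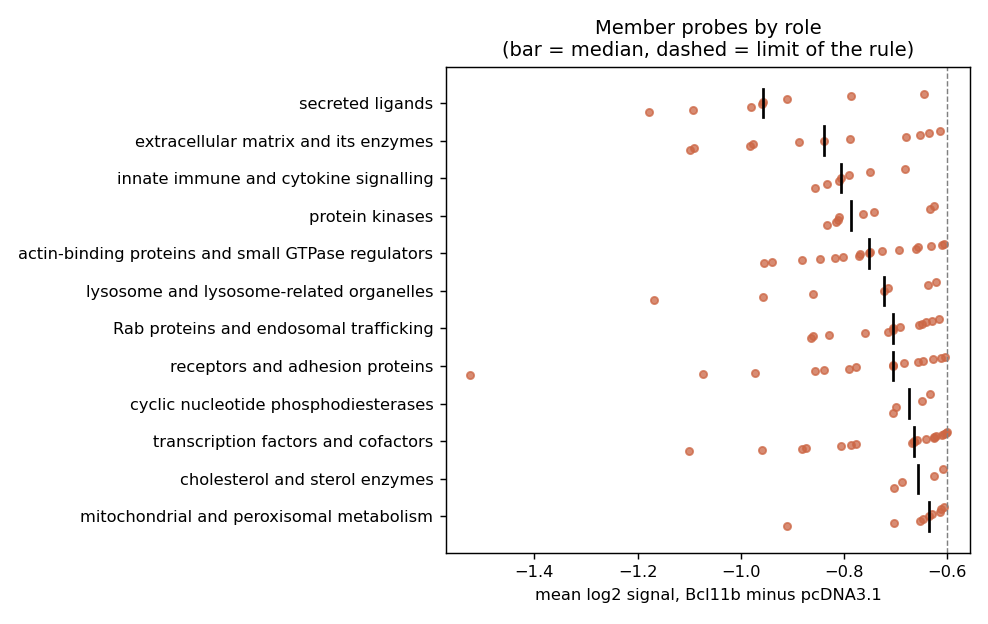
Difference of the mean log2 signal, Bcl11b minus pcDNA3.1 (x axis), for member probes in 12 role groups (y axis), with 1 point per probe, a bar at the median and a dashed line at the limit of -0.6. Secreted ligands lie farthest to the left (median -0.96) and mitochondrial and peroxisomal enzymes nearest to the limit (median -0.64).

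The 6 genes for secreted ligands gave 8 probes with a median difference of -0.96. Artn encodes artemin, a neurotrophic ligand of the GDNF family, and 2 of its probes were members, while its other probes were not detected on all arrays. On the brighter probe the control values were 10.15, 9.56, 10.19 and 10.18 and the Bcl11b values 8.80, 8.82, 8.88 and 8.88, a 2.26-fold lower signal. All Bcl11b arrays were nearly level, as were the control arrays except pcDNA3.1 replicate 2, which was lowest. The dimmer probe differed by -1.09, with pcDNA3.1 replicate 2 again lowest at 9.13 against 9.68 to 9.79.

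Csf1, the growth factor of macrophages and microglia, differed by -0.79, and Pdgfb, the B chain of platelet-derived growth factor, measured 8.86 ± 0.22 against 9.51 ± 0.17 in the control (n = 4 each). Both probes of Prl2c3, a secreted proliferin of the prolactin family, were members with differences of -0.98 and -0.91 from bright control levels of 12.22 and 11.83. The array names them by older symbols, and since proliferin genes are near-identical copies, these probes may read more than 1 of them. Cfp, the complement regulator properdin, had a wider spread, with Bcl11b values of 8.58, 8.81, 7.99 and 8.16 below control values of 9.26, 8.88, 9.72 and 9.52.

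Grn encodes progranulin, a secreted growth factor that is also carried to lysosomes. It measured 11.59, 10.95, 11.94 and 11.85 in the control arrays and 10.59, 10.66, 10.58 and 10.68 with Bcl11b. The Bcl11b arrays were level to within 0.1, and pcDNA3.1 replicate 2 was again the lowest control array.

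Receptors and adhesion proteins were represented by 15 genes with a median difference of -0.70. After Gper1 came Rgma, a repulsive axon guidance molecule anchored to the cell surface, with a difference of -1.07. Its values of 8.63, 7.88, 8.60 and 8.76 against 7.35, 7.75, 6.95 and 7.53 left a gap of only 0.13, between pcDNA3.1 replicate 2 and Bcl11b replicate 2. The acid-sensing channel Asic1 differed by -0.97, the interleukin-17 receptor chain Il17rc by -0.86, Vasn, which binds TGF-beta, by -0.84, the integrin chain Itgb5 by -0.66, and the lysophosphatidic acid receptor Lpar1 by -0.61. The smallest difference in the group was -0.60 for Sirpa, an inhibitory receptor that binds CD47, with closely grouped control values of 10.15, 10.22, 10.14 and 10.08 and Bcl11b values of 9.56, 9.59, 9.34 and 9.68.

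Extracellular matrix proteins and their enzymes made up 10 genes with a median difference of -0.84. Prelp, a small leucine-rich proteoglycan, had control values of 10.14, 10.35, 10.45 and 10.51 and Bcl11b values of 9.04, 9.30, 9.23 and 9.49, a 2.14-fold lower signal. Chst1, a Golgi sulfotransferase that acts on keratan sulfate, was similar, with 11.15, 11.02, 11.35 and 11.30 against 9.91, 10.04, 10.21 and 10.29. For both genes the arrays of a group spanned less than 0.5, and the gaps between the groups were 0.65 and 0.73.

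Among the collagens, Col7a1, which forms anchoring fibrils, differed by -0.98, the fibril-associated Col16a1 by -0.79 and Col6a1, which forms microfibrils, by -0.68. A brighter probe of Col6a1 differed by -0.24 with overlapping groups. Loxl1, a lysyl oxidase that crosslinks elastin, measured 11.20 ± 0.30 in the control and 10.31 ± 0.11 with Bcl11b (n = 4 each). Adamtsl4, a secreted ADAMTS-like protein, differed by -0.98, and the serine protease Htra1 by -0.65 and -0.61 on its 2 probes. Col1a1, the abundant fibrillar collagen used as a mesenchymal marker, was no member, with means of 11.18 and 11.40.

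For transcription factors and cofactors there were 19 genes with a median difference of -0.66. Foxc2, a forkhead factor of mesenchyme and vessels, had the largest, -1.10, from 8.18, 7.75, 7.84 and 8.19 to 6.80, 7.19, 6.76 and 6.80. Gata2, a zinc finger factor of blood and neural progenitors, differed by -0.96, and Zfpm1, a cofactor that binds GATA proteins, by -0.88. In Gata2 pcDNA3.1 replicate 2 was lowest at 7.87, close to the 7.72 of Bcl11b replicate 2.

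Several developmental regulators of the brain lay nearer to the limit. Lhx1, a LIM homeodomain factor, differed by -0.66, Otx1 by -0.63, Irx3 by -0.61, Nr2f1 by -0.60 and Sp8 by -0.60. Nr2f1, or COUP-TF1, was bright and narrow, with control values of 12.57, 12.48, 12.31 and 12.69 and Bcl11b values of 11.91, 11.95, 11.85 and 11.93. Irf1, an interferon response factor, differed by -0.81, the AP-1 family repressor Jdp2 by -0.67 and the Krüppel-like factor Klf3 by -0.66. The other probe of Irf1 detected on all arrays differed by -0.27 with overlapping groups. The histone deacetylase Hdac10 differed by -0.78 with a gap of only 0.04.

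Actin-binding proteins and regulators of small GTPases were represented by 17 probes of 14 genes, with a median of -0.75. Cdc42ep2, an effector of Cdc42, spread from 8.10 to 9.22 over the control arrays and from 7.54 to 7.88 with Bcl11b, a difference of -0.94. The exchange factors Arhgef1 and Arhgef3 differed by -0.88 and -0.85, and the second had a gap of 0.50 between the groups. The other detected probe of Arhgef1 differed by 0.12 with overlapping groups. Triobp, which binds and stabilizes filamentous actin, was among the brightest members. Its 2 member probes had control means of 13.02 ± 0.23 and 13.19 ± 0.30 and Bcl11b means of 12.20 ± 0.19 and 12.44 ± 0.17 (n = 4 each).

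Plekhg2, an exchange factor for small GTPases, and Micall2, which acts on actin at cell junctions, also had 2 member probes each, at -0.80 and -0.73 and at -0.77 and -0.69. Cfl2, the actin-severing cofilin of muscle, was at the edge of overlap, with a gap of 0.01 between pcDNA3.1 replicate 3 (8.44) and Bcl11b replicate 2 (8.43).

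The group of Rab proteins and endosomal trafficking held 13 probes of 12 genes with a median of -0.70. Appl2, an adaptor on early endosomes, had control values of 9.46, 9.49, 9.72 and 9.75 and Bcl11b values of 8.76, 8.83, 8.64 and 8.78. Rab32, a small GTPase of lysosome-related organelles, had a gap of 0.52 and a difference of -0.76. The sorting receptor Sort1 differed by -0.70 and the clathrin adaptor Dab2 by -0.61. For Rab34 the difference of -0.66 came with a gap of only 0.05 and with Bcl11b replicate 4 at 8.70 against 9.47 to 9.59 in the other Bcl11b arrays.

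Lysosomes and related organelles were represented by 7 genes with a median of -0.72. Glb1, lysosomal beta-galactosidase, measured 9.09, 8.94, 9.25 and 9.04 against 7.65, 7.59, 8.31 and 8.09, a 2.25-fold lower signal in which the Bcl11b arrays varied more than the control arrays. Dram1, an autophagy regulator of the lysosomal membrane, differed by -0.86, the cystine transporter Ctns by -0.71, Hps6 and Hps3, subunits of a complex that builds lysosome-related organelles, by -0.72 and -0.62, and the two-pore channel Tpcn2 by -0.64.

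Innate immune and cytokine signalling contributed 7 genes with a median of -0.80. The kinase Tyk2, which acts below cytokine receptors, differed by -0.83, Irak4, which acts below Toll-like receptors, by -0.81, the Toll-like receptor Tlr2 by -0.79 and the feedback inhibitor Socs3 by -0.68. In Irak4 the Bcl11b values of 6.80, 6.78, 6.92 and 6.91 were level and the control values of 7.90, 7.35, 7.92 and 7.49 were not. In Socs3 pcDNA3.1 replicate 2 (8.39) lay below the other control arrays (9.02 to 9.08) and just above Bcl11b replicate 1 (8.31).

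Of 8 protein kinases with a median of -0.79, Mapk12 and Mapk11, the gamma and beta forms of p38, differed by -0.82 and -0.74. Mapk12 had control values of 10.08, 9.98, 10.21 and 10.29 and Bcl11b values of 9.35, 9.29, 9.19 and 9.47. These genes are neighbours on chromosome 15 in the RefSeq annotation, and Hdac10 lies next to Mapk12, so that 3 adjacent genes were members. The only other member genes next to each other were Nr2f1 and Arrdc3 on chromosome 13. Cdk5, a kinase of neurons, differed by -0.76, and Camkk1, a calcium-dependent kinase kinase, by -0.81.

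The cyclic nucleotide phosphodiesterases Pde1a, Pde1b and Pde8a differed by -0.63 to -0.71. Pde1a was a member on 2 probes, at -0.70 and -0.63, and Pde1b, which is enriched in the striatum, differed by -0.71 with a gap of 0.04, set by pcDNA3.1 replicate 2. Among 4 enzymes of cholesterol and sterol metabolism, Hmgcs1, which makes the precursor of mevalonate, was the brightest member, with 13.54, 13.53, 13.58 and 13.65 against 12.81, 13.02, 12.82 and 13.16. Its difference of -0.63 became -0.27 when arrays were divided by their medians. Nsdhl of a later synthesis step differed by -0.61 on its member probe. Its other detected probes were brighter and differed by -0.24, -0.22 and -0.19 with overlapping groups. Hsd3b7 of bile acid synthesis differed by -0.70.

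Mitochondrial and peroxisomal enzymes lay nearest to the limit, with a median of -0.64 over 9 genes. Acads, the short-chain acyl-CoA dehydrogenase, was the exception with -0.91, from 8.38, 7.76, 8.77 and 8.41 to 7.33, 7.40, 7.54 and 7.41. Cpt2, which releases fatty acids from carnitine inside mitochondria, differed by -0.61, and Idh2, mitochondrial isocitrate dehydrogenase, by -0.63.

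The control arrays did not contribute evenly. In pcDNA3.1 replicate 2 the median level of the members was 8.90, whereas it was 9.22, 9.30 and 9.29 in the other control arrays and 8.51, 8.52, 8.30 and 8.38 in the Bcl11b arrays. That array was the lowest control array for 161 member probes (71.9%) and the highest for 4 (1.79%), while over all detected probes it was lowest for 27.8%. Within the Bcl11b group replicate 3 was the lowest array for 115 members (51.3%, against 28.2% of all detected probes). The order of arrays within a group was not used by the rule.

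**Figure D3:**
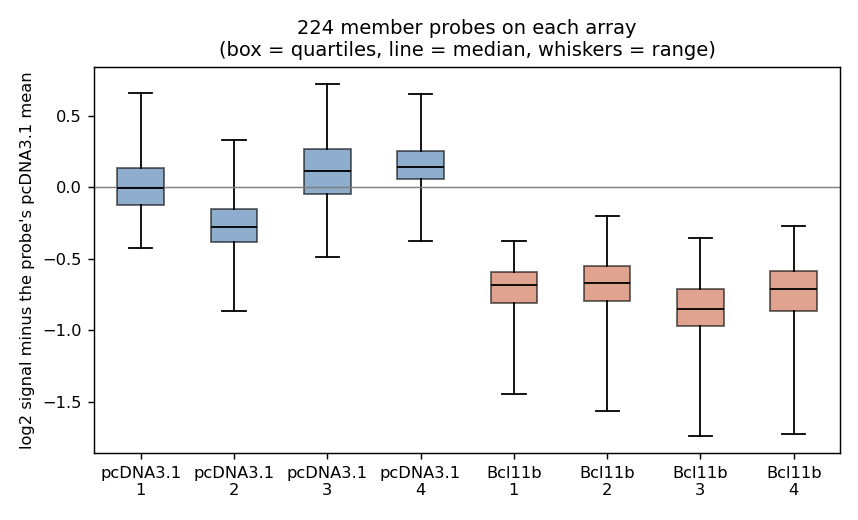
Log2 signal of the 224 member probes on each array (x axis), after subtraction of the probe's mean over the control arrays (y axis, log2 units), with boxes for the quartiles, a line for the median and whiskers for the whole range. The box of pcDNA3.1 replicate 2 lies between those of the other control arrays and those of the Bcl11b arrays.

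The choice was repeated with each array left out, and the array that took no part was then read for the probes so chosen. With pcDNA3.1 replicates 1, 3 or 4 left out, 247, 217 and 165 probes were chosen, and in the left-out array 91.1%, 90.3% and 98.2% of them lay above all Bcl11b arrays. Over all detected probes the same shares were 31.8%, 30.5% and 35.8%. With Bcl11b replicates 1 to 4 left out, 244, 293, 187 and 292 probes were chosen, and 94.3%, 80.5%, 97.3% and 84.2% of them lay below all control arrays, against 23.8%, 22%, 30.2% and 26.3% of all detected probes.

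Without pcDNA3.1 replicate 2 the choice widened to 507 probes, of which 56.8% lay above all Bcl11b arrays in that replicate, against 22.3% of all detected probes. The median difference between that array and the Bcl11b mean for these probes was -0.25, whereas for the arrays chosen on it was -0.75. The left-out array gave the same side for most probes in all 8 cases, and the share was smallest for pcDNA3.1 replicate 2. These shares share 7 arrays between any 2 cases and were given no test.

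**Figure D4:**
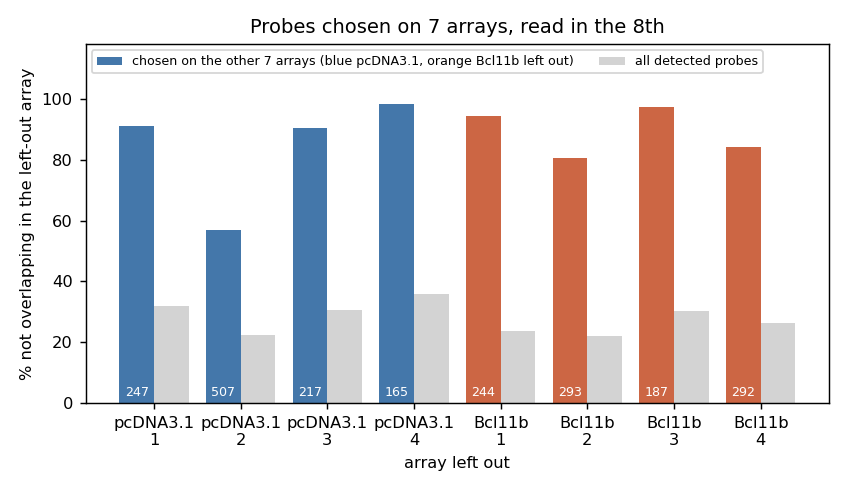
Percent of probes (y axis) for which the left-out array (x axis) lies beyond all 4 arrays of the other group, for probes chosen on the other 7 arrays (coloured bars, with the number of probes in white) and for all detected probes (grey bars). The share of chosen probes is 80.5% or more for 7 arrays and 56.8% for pcDNA3.1 replicate 2. The grey bars involve no choice on 7 arrays, so they do not show what the choice alone would give.

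When the normalization was repeated as well, 120 member probes (53.6%) were chosen again whichever array was left out, and all 30 of those with the largest decrease were among them. The members had been chosen on these same arrays, and leaving out an array cannot by itself make separate groups overlap. A member could be lost only through a smaller difference or through the repeated normalization. Those 30 lay farthest from the limit on the difference, so their return was largely fixed by the choice. By group, all 7 innate immune probes, 7 of 8 ligand probes and 8 of 11 matrix probes were chosen each time, but 1 of 9 mitochondrial and peroxisomal and 1 of 4 sterol probes. The median differences of the innate immune, ligand and matrix groups were -0.805, -0.958 and -0.839. Those of the mitochondrial and peroxisomal and the sterol groups were -0.636 and -0.657, nearest to the limit. The shares therefore cannot separate a group's role from its distance to the limit.

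There were 11 genes with 2 member probes each, namely Artn, Prl2c3, Eif4e3, Triobp, Dcun1d4, Plekhg2, Tmc6, Micall2, Epn2, Pde1a and Htra1. For 81 member genes the array held 134 other probes that were no members, of which 48 were detected on no array and 27 on 1 to 7 arrays. The remaining 59 probes, from 45 genes, were detected on all 8 arrays and had a median difference of -0.31. Of these, 50 (84.7%) lay below 0, against 53.4% of all detected probes. Lower without overlap were 8 (13.6%), against 7.38% of all detected probes. The 59 are only those that did not meet the rule, since other probes of a gene that met it were counted as members. They were read on the same arrays as the member probes and so add no replicate.

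The 8 lower without overlap belonged to Dnaja2, Hsd3b7, Ilvbl, Ist1, Nsmf, Pde1a, Txnrd2 and Zfp41. The second probe of Hsd3b7 measured 8.71 ± 0.07 against 8.13 ± 0.12 (n = 4 each), a difference of -0.58 beside -0.70 on the member probe. The other probe of Pde1a, which has 2 member probes, differed by -0.59 and the second of Txnrd2 by -0.57. In these 3 genes the probes differed by similar amounts.

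In other genes the probes disagreed. Epn2 had a probe with a difference of 0.42, from 8.87, 10.20, 8.52 and 9.31 to 9.37, 9.26, 9.66 and 10.31, beside member probes at -0.70 and -0.65 and 2 other detected probes at -0.34 and -0.08. Glrx2 had one at 0.51, Ptpre one at 0.40 and Arhgef1 one at 0.12. In all 4 the groups overlapped. The other probes of Rab34 differed by 0.13 and -0.31. Those of Il17rc differed by -0.02 and -0.09, so that its lower signal was seen on 1 probe alone. The other detected probes of Nsdhl, Col6a1 and Irf1 given above overlapped as well, as did those of Hps3 (-0.25), Lgals8 (-0.195) and Zfp553 (0.16). Which transcripts the probes read was not tested.

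**Figure D5:**
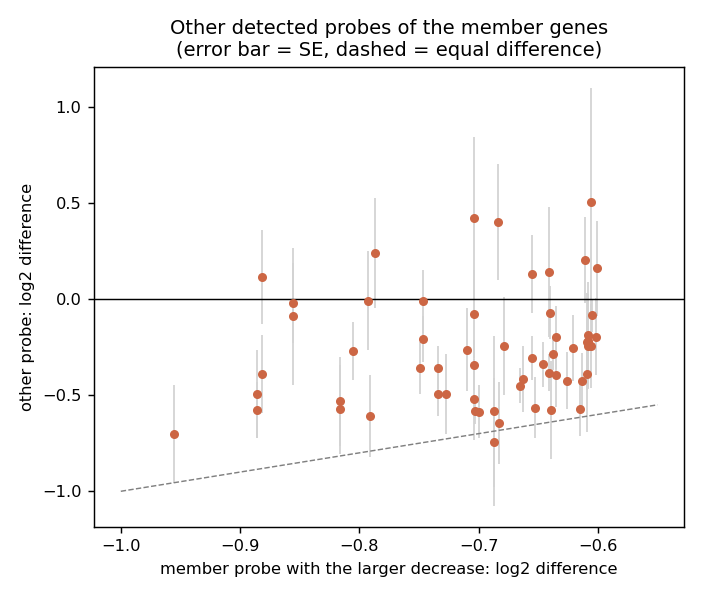
Log2 difference, Bcl11b minus pcDNA3.1, of the 59 other detected probes of member genes (y axis, error bars are the standard error of limma) against the difference of the gene's member probe with the larger decrease (x axis). Most points lie below 0 and above the dashed line of equal difference, and 9 lie above 0. The probes on the y axis are those that did not meet the rule, so a place above the dashed line was largely fixed by the choice.

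The same rule with the signs turned kept 74 probes of 67 genes. Their median level was 8.23 in the control arrays and 9.11 in the Bcl11b arrays, against 9.23 and 8.45 for the members, levels that both rules used. Of the probes kept in either direction 75.2% were lower. With arrays scaled by their medians in place of quantiles, the rule kept 136 lower and 145 higher probes, so that 48.4% were lower, and without Bcl11b replicate 4 the higher probes numbered 590 and the lower 297. The number of members relative to the higher set thus depended on the scaling and on 1 array.

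The sign of the members, which the rule fixed under quantile normalization, was also below 0 for all 224 with neqc, division by the array median and no normalization. In the order quantile, neqc, array median and none, the members' medians were -0.71, -0.67, -0.67 and -1.42, while the medians of all detected probes were -0.03, -0.03, 0.07 and -0.68. The distance between these medians was -0.68, -0.65, -0.74 and -0.74. With division by the array median 160 of the 224 kept a difference of -0.6 or less, and the smallest difference became -0.27, that of Hmgcs1.

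In a test across all 25697 probes (limma, Benjamini-Hochberg adjustment, adjusted p-value under 0.10), 161 probes (0.627%) were lower and 91 (0.354%) were higher with Bcl11b. Among the detected probes the shares were 1.27% (119 of 9360) lower and 0.299% (28) higher. Of the members 62 (27.7%) passed, which the rule fixed in large part, since it used the same difference. Division by the array median turned the balance of all calls to 46 lower and 100 higher. The count of lower calls was 10 under limma-trend with robust eBayes and 462 without pcDNA3.1 replicate 2.

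Lists of related genes were set beside the members to see how the rest of each family stood. Over all detected probes, 53.4% lay below 0, 7.38% were lower without overlap and 1.27% passed the test as lower. The share with an unadjusted limma p-value under 0.05 was not counted over all detected probes. Counts at that limit below therefore have no background. Of 11 GDNF family ligands and receptors, 3 were detected on all 8 arrays. Besides the member Artn these were Gdnf, with means of 10.56 ± 0.19 and 10.43 ± 0.12, and Ncam1, with 8.37 ± 0.35 and 8.27 ± 0.16 (n = 4 each). Neither passed the test (limma), and 0 had an unadjusted p-value under 0.05. The receptor genes Ret and Gfra1 to Gfra4 were not detected on all arrays.

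In the PDGF and VEGF family 10 of 17 genes were detected and 3 were members, Pdgfra, Pdgfb and the receptor-like Pdgfrl (-0.65). Of the 7 others 0 passed the test in either direction, and 3 had an unadjusted p-value under 0.05 in limma and were lower. Of these 7 genes 6 lay below 0, against 53.4% of all detected probes. Lower without overlap were 2, Pdgfrb (-0.49) and Vegfa (-0.32), as were 7.38% of all detected probes. The median of the 7 was -0.31, or -0.13 when arrays were divided by their medians. Pdgfc, with a difference of -0.61 and overlapping groups, was not chosen because of the overlap.

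Among 18 small leucine-rich proteoglycans 4 were detected. Prelp was a member, Bgn (-0.48) and Ogn (-0.47) did not pass the test, and Dcn, which encodes decorin, rose with Bcl11b from 7.29 ± 0.38 to 8.76 ± 0.11 (n = 4 each), a difference of 1.47 with an adjusted p-value of 0.0492. Thus Dcn and Prelp, proteoglycans of the same family, lay on opposite sides. Of 23 elastic fibre and lysyl oxidase genes 12 were detected. Adamtsl4 and Loxl1 were members, and of the 10 others 0 passed (2 at an unadjusted limma p-value under 0.05), with a median of -0.14. Ltbp3 (-0.57) and Emilin1 (-0.45) were lower without overlap, as were 7.38% of all detected probes, and Lox itself was at 0.05.

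The lysosomal list had 36 detected genes of 47. Beside the members Glb1, Grn and Ctns, 1 of 33 others passed, and 10 of the 33 did not overlap and were lower (7.38% of all detected probes did so), among them Lipa (-0.58) and Gusb (-0.58). Hexa, a lysosomal hydrolase gene, did not overlap in the opposite direction, at 0.32. The median of the 33 was -0.28, and -0.16 with division by the array median, against -0.03 and 0.07 over all detected probes.

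Of 27 genes for interleukin-17, gp130-type and related cytokine receptors and their signalling proteins 11 were detected, with Il17rc, Tyk2 and Socs3 as members. Of the other 8, Il11ra1, the receptor for interleukin-11, fell by 0.41 (adjusted p-value 0.0599), and the oncostatin M receptor Osmr differed by -0.57 without overlap. With division by the array median the adjusted p-value of Il11ra1 was 0.309. The shared signalling chain Il6st was at -0.01.

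Of 39 Rab GTPases 30 were detected and Rab6b, Rab32 and Rab34 were members. Of the other 27, Rab11b fell by 0.30 (adjusted p-value 0.0358), but its difference was 0.04 when arrays were divided by their medians. The median of the 27 changed sign likewise, from -0.10 to 0.06.

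Mitochondrial fatty acid oxidation counted 17 detected genes of 22. Acads and Cpt2 were members, and of the 15 others 0 passed, 4 being lower at an unadjusted limma p-value under 0.05. Their values ran from -0.80 for Cpt1b to 0.72 for Acsl1, with overlapping groups at both ends and a median of -0.20. In the list of TGF-beta and activin genes Vasn was the only member among 19 detected, and 0 of 18 others passed (5 lower at an unadjusted limma p-value under 0.05). Of these 18 genes 15 lay below 0, against 53.4% of all detected probes, with a median of -0.26. The list of heparan and chondroitin sulfate synthesis and glypicans also held Chst1, which acts on keratan sulfate. Chst1 was the only member among its 16 detected genes and 0 of 15 others passed, 3 being lower at the same unadjusted limit (median -0.22). The aldehyde dehydrogenases (8 detected, median -0.21) and the integrin-linked LIM adaptors (20 detected, median -0.17, or 0.09 with division by the array median) held 0 members and 0 calls, with 2 lower in the first and 6 lower and 1 higher in the second at that limit in limma.

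At the edge of the choice, the members just inside the limit were Lgals8 (-0.602), Sp8 (-0.601) and Zfp553 (-0.601), and the probes just outside were Golm1 (-0.599), Ankrd39 (-0.598) and Wipi1 (-0.597). Golm1, a Golgi membrane protein, measured 11.24, 11.44, 11.50 and 11.55 against 10.85, 10.72, 10.78 and 10.97 and was as well separated as many members. A further 107 detected probes had a difference of -0.6 or less with overlapping groups, 467 did not overlap but differed by less, and 255 met both conditions without being detected on all 8 arrays, of which 130 were detected on none.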

How the data were processed

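Total RNA of 8 samples of transfected cells, 4 per group, was measured on Illumina MouseRef-8 v2 arrays. The deposited intensities are the average signals per probe that the authors exported without normalization, and GenomeStudio is named in the submitters' processing notes, with no version. The deposited detection p-values give the chance of such a signal among the negative controls. Arrays were quantile-normalized in R 4.3.3 with limma 3.58.1, values under 1 were set to 1, and log2 was taken. Groups were compared across all 25697 probes with lmFit and eBayes and Benjamini-Hochberg adjustment (threshold 0.10), a step tested on simulated data. Groups and replicate numbers came from the labels.

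Members, gene lists and alternatives were chosen with earlier results of these data known, and the 12 role groups after the members were seen. Genes named are the 30 members with the largest decrease, members in a list or with another probe, the 3 probes on each side of the limit, and list genes passing the test. Other members of role groups, other list genes and those set as examples were picked after their values were seen. Each list gene was read from its brightest probe detected on all 8 arrays. Of 215 symbols, 143 were current in RefSeq, 65 were renamed through synonyms and 7 kept the file's name. Promoters are RefSeq windows of build GRCm38.p6. Alternatives changed the normalization, floor, detection filter, limit, test and pairing, and left out each array. The number of arrays limits the precision. Some genes and 1 list are not reported here.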

Additional observations from a re-analysis of the deposited data

Results flagged for a closer look

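For the 104 named member probes and a few measures per array (the members' median, the median signal and the number of probes detected), 214 groups of 4 arrays were examined for 1 array far from the other 3 (a gap beyond the critical value of Dixon at 4 values). It was found in 15 (7.01%), and chance gives about 1 in 20. The values are log2 signals. In pcDNA3.1 replicate 2 the lowest value stood apart for Artn (9.563, on the brighter probe), BC049816 (9.234), Hsd3b7 (9.798) and Socs3 (8.39), and each of these brings the control group nearer to the Bcl11b group. In pcDNA3.1 replicate 4 the highest value stood apart for Cnot6l (8.366).

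Among the Bcl11b arrays, replicate 2 was apart as the lowest for Ncald (6.498) and as the highest for Foxc2 (7.19). Replicate 3 was lowest for Gper1 (7.073), Ctns (8.406) and Epn2 (9.854) and highest for Zfp41 (9.055). Replicate 4 was lowest for Cdc42ep2 (7.54), Fhod1 (9.694) and Rab34 (8.697) and highest for Dmtn (7.672).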

How the results depend on the processing

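Against 224 members, the rule kept 1772 probes with no normalization, 136 with division by the array median, 346 at a limit of -0.5 and 63 at -0.8. It kept 171 to 518 with 1 array left out, 518 without pcDNA3.1 replicate 2. The members' median of -0.71 became -1.422 with no normalization. Over all probes, against 161 lower and 91 higher, there were 38 and 19 with no normalization, 267 and 146 with neqc, 10 and 35 with limma-trend and robust eBayes, and 440 and 202 with array weights. With division by the array median 46 were lower. Detection at 0.05 on all 8 arrays gave 103 lower and 34 higher, and detection on at least 4 arrays 57 higher. With 1 array left out, lower calls ranged from 33 to 462 and higher calls from 53 to 175, the highest of both without pcDNA3.1 replicate 2. Lower calls were 52, 55 and 44 without pcDNA3.1 replicates 1, 3 and 4 and 34, 43 and 33 without Bcl11b replicates 1, 2 and 3. The higher set of 74 probes, an alternative chosen after seeing the data like the count of second probes, became 2 with no normalization, 145 with division by the array median and 70 to 590 with 1 array left out, 298 without pcDNA3.1 replicate 2 and 590 without Bcl11b replicate 4. The 50 second probes below 0 became 45 to 59. They were 59 with no normalization, where 96.2% of all detected probes lay below 0, and 47 with division by the array median, where 41.5% did. The causes were not tested.

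Whether the replicate numbers pair the arrays cannot be told from 4 arrays per group. Same-numbered arrays deviated together with r of 0.677, -0.63, 0.182 and 0.695, and differently numbered arrays with r from -0.768 to 0.579. With the replicate block 22 probes were lower and 23 higher, and 257 probes met the rule with all 4 differences within numbers below 0. For the 104 named member probes, 1245 values lay within 1 SD of the value given, 107 moved further, 104 of them with no normalization, and 0 changed sign. All were read from the signals that the rule used, so a change of sign was hardly possible. Signal near background limits the dimmest members, and 255 probes met the rule except for detection on all 8 arrays.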
